A study of Homo sapiens with 8 samples.

Results

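The metallothionein genes of human neuroblastoma cells are described here across the NGP and CHLA-20 lines, each with and without inhibition of the arginine methyltransferase PRMT5. The 8 genes MT1A, MT1E, MT1F, MT1G, MT1M, MT1X, MT2A and MT3 were chosen by name from 58721 genes in the count tables, after results from the same libraries had been seen. Their levels and differences are therefore given as descriptions, and how many of them met a threshold is printed beside the share over all genes with nothing read from it. Of the 8 genes, 7 had at least 1 count in some library and 3 (MT2A, MT1X and MT1E) passed the filter on low counts, MT1E only through its NGP libraries, where it is high.

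RNA was sequenced from 2 libraries in each of 4 groups: NGP with JSK591, NGP with the vehicle DMSO, CHLA-20 with JSK591, and CHLA-20 with DMSO. Treatment lasted 6 days. The inhibitor has the name JSK591 in the sample labels, but the protocol text writes GSK591, and its dose is described only as an IC50, with no concentration. NGP cells grew in RPMI1640 medium with fetal bovine serum, and CHLA-20 cells in IMEM medium with the same serum and a supplement of insulin, transferrin and sodium selenite, so the lines also differed in medium. Each line is a single established tumour line, and the labels do not say whether the 2 libraries of a group came from separate cultures, so p-values measure the spread between these libraries, which may be technical.

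Metallothioneins are small, cysteine-rich proteins that bind zinc and copper, and also toxic metals such as cadmium. Zinc entering a cell activates the transcription factor MTF1, which binds metal response elements in front of the MT1 and MT2A genes and of SLC30A1, the exporter that returns zinc to the outside. MT2A and the MT1 genes are widely expressed, MT3 is the form described in brain, and MT4 that of stratified epithelium.

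All 8 genes lie on chromosome 16 of GRCh38, between position 56589074, where MT3 starts, and position 56684196, where MT1X ends (GENCODE 29). MT2A occupies 56608199 to 56609497, MT1E 56625475 to 56627112 and MT1X 56682424 to 56684196, all on the plus strand. MT1G alone among the 8 lies on the minus strand. The coding sequences are near copies of each other, which bears on how reads can be told apart. The coding sequences of the 3 genes that passed the filter are shown 5′ to 3′ from the GENCODE 29 transcripts. With them stands the whole transcript of MT1XP1, a processed pseudogene on chromosome 1 (16241213 to 16241398, minus strand), which has no annotated coding sequence. Bases that differ from MT1X are in capitals.
MT1X: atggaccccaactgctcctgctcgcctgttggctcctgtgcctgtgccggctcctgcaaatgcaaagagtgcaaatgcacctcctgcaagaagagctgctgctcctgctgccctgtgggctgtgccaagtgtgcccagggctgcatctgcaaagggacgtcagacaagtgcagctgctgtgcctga
MT2A: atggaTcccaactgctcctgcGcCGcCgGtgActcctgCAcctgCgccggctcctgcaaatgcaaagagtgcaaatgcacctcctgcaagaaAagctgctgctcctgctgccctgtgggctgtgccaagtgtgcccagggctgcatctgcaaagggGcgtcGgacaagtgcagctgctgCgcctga
MT1E: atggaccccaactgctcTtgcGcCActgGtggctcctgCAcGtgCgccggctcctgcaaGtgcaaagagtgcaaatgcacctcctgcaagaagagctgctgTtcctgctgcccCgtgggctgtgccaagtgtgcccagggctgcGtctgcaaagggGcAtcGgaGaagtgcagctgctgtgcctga
MT1XP1: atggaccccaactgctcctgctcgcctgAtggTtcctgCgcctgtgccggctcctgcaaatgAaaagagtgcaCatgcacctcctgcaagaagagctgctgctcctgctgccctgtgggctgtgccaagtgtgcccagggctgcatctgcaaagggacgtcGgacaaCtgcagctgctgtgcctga

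Each of these sequences has 186 bases. MT1XP1 differed from MT1X at 7 of them, MT2A at 14 and MT1E at 17. Of all stretches of 50 bases in the coding part of its transcripts, MT1X shared 85.2% with another annotated gene, MT1G 40.1%, MT1E 16.1% and MT2A 13.6%. Over whole transcripts, where the untranslated ends diverge, the shared part was 18.3% for MT1X, 16.5% for MT1G, 7.10% for MT1E and 3.02% for MT2A, and none for MT3. Over stretches of 100 bases it was 11.3% for MT1X, all of it with AC026461.1, and 0 for the other members. A further transcript, AC026461.1, covers 18.1% of the exonic bases of MT1X on the same strand and had no count in any library. Over whole transcripts it held the most of the 50-base stretches that MT1X shared, so the values for MT1X are not likeness within the family alone. The longest run that the coding sequence of MT1X shared with a metallothionein coding sequence of equal length was 96 bases, with MT1G. Reads that matched several genes, or a stretch where genes overlap, were not assigned to a gene, and without the read length the part of each gene's reads that was lost in this way is unknown.

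The 250 bases before the RefSeq start site (GRCh38.p14) are shown for MT2A (chr16:56608334-56608583) and MT1X (chr16:56682220-56682469), the members for which a promoter was at hand, and for MT1H (chr16:56669564-56669813), a family member that was hardly counted. All are on the plus strand, and capitals mark matches to the core of the metal response element.
MT2A: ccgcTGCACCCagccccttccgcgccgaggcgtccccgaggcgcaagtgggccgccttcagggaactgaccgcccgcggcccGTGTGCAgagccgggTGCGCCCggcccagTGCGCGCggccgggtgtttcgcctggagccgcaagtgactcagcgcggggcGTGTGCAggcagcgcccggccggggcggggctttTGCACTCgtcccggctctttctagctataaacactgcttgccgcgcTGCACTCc
MT1X: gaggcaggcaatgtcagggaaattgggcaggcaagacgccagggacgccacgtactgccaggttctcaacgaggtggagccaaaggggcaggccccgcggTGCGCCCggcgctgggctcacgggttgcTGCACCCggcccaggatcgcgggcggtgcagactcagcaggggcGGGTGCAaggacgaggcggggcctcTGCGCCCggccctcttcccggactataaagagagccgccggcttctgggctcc
MT1H: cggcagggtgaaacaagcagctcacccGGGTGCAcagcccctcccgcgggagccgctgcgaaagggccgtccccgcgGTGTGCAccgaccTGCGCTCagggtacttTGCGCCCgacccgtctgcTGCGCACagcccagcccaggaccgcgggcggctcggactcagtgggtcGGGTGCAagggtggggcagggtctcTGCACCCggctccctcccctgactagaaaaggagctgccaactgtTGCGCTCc

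The core was searched as TGCACNC or TGCGCNC on both strands, in windows from 250 bases before to 50 bases after the start. MT2A held 8 matches, of which 7 lie before the start, MT1H held 8 and MT1X held 4, while 2 were found at SLC30A1 and 0 at MTF1. Among 35116 RefSeq promoters of this length, 29.6% held at least 1 match, 2.30% at least 3 and 0.601% at least 4. The matches are letters in a window and were not tested as binding sites. The counts of MT1H were 0 in all 4 NGP libraries and in both CHLA-20 libraries with JSK591, and 1 in each CHLA-20 library with DMSO. MT1B and MT4 held 3 matches each and had no count in any library. Whether the number of matches bears on the level was not tested.

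**Figure D1:**
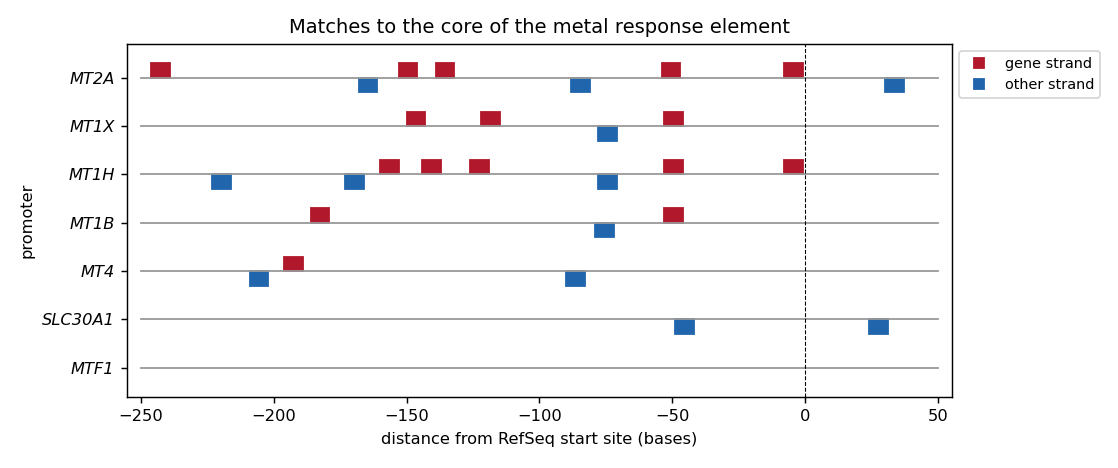
Position of each match to the metal response element core, in bases from the RefSeq start site (dashed line), in 7 promoters. Red boxes above a line are on the gene's strand and blue boxes below it are on the other strand; MT2A and MT1H hold 8 matches each and MTF1 holds 0.

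The libraries held 33188542 to 34914902 counts assigned to genes. Levels are given as CPM, counts scaled to a common library size with TMM factors, where 1 count in 1 library stands near 0.03 CPM. For a count of 0, a floor of 3 counts is used, near the one-sided 95% limit, which in 1 library is 0.0859 to 0.0904 CPM of unscaled gene counts. These floors and the two-sided 95% exact Poisson intervals below cover counting error only. In bulk RNA, fewer expressing cells and less RNA per cell cannot be told apart.

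The 8 genes together were a minor part of the RNA. They summed to 5.86 and 5.41 CPM in the NGP libraries with JSK591, against 5.37 and 5.99 CPM in the NGP libraries with DMSO. They summed to 2.94 and 2.53 CPM in CHLA-20 with JSK591, against 3.34 and 2.99 CPM in CHLA-20 with DMSO. All 4 NGP libraries lay above all 4 CHLA-20 libraries, and the means were 5.66 ± 0.317 CPM in NGP and 2.95 ± 0.334 CPM in CHLA-20 (SD, n = 4 each, treatments pooled). MT2A gave the larger share of the members' counts in every library, 56.5% to 65.0% in NGP and 73.5% to 87.6% in CHLA-20.

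**Figure D2:**
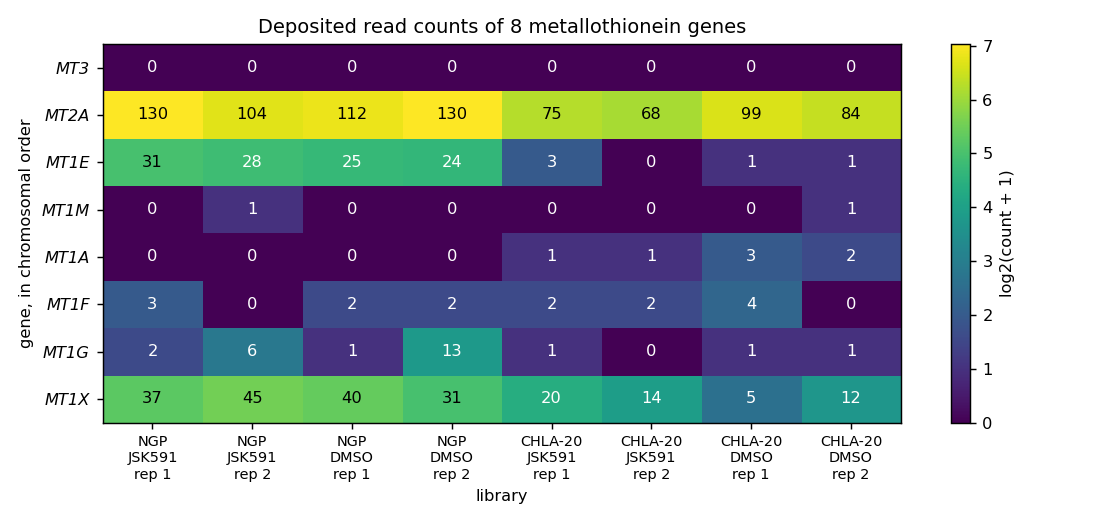
Deposited counts of the 8 genes (rows, in chromosomal order) in the 8 libraries (columns), coloured by log2(count + 1). MT2A is counted in every library, MT1E almost only in NGP, and MT3 in none.

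Per kilobase of exon, averaged over the 8 libraries, the order of levels was MT2A (2.28 CPM per kilobase), MT1X (0.424), MT1E (0.396), MT1G (0.124), MT1A (0.0652), MT1F (0.0292), MT1M (0.00783) and MT3 (0). MT2A stood at percentile 48.3 of the 19395 genes tested on this scale, whose median was 2.49, and MT1X and MT1E stood at percentiles 21.8 and 20.9. The order of MT1X and MT1E depended on the line and on the length used: with the longest transcript as length, MT1E averaged 0.571 and MT1X 0.435 CPM per kilobase. In NGP, MT1E had 0.851 and 0.783 CPM per kilobase with JSK591 and 0.708 and 0.684 with DMSO, and MT1X had 0.603 and 0.746 with JSK591 and 0.673 and 0.524 with DMSO, ranges that overlap. With the longest transcript as length they did not, MT1E lying between 0.987 and 1.23 and MT1X between 0.538 and 0.766 in NGP. In CHLA-20, MT1X was above MT1E in each of the 4 libraries with either length. Neighbours below MT1G were too thinly counted to be ordered.

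MT2A, the most widely expressed human metallothionein, was the only member with more than 50 counts in every library. It had 3.75 and 3.06 CPM in NGP with JSK591, against 3.34 and 3.90 CPM in NGP with DMSO. It had 2.17 and 2.02 CPM in CHLA-20 with JSK591, against 2.93 and 2.49 CPM in CHLA-20 with DMSO. The NGP groups overlap, and both CHLA-20 libraries with JSK591 lie under both with DMSO. The fitted log2 difference between JSK591 and DMSO was -0.09 ± 0.16 (SE) in NGP and -0.37 ± 0.19 in CHLA-20, and that between the lines with DMSO, NGP minus CHLA-20, was 0.42 ± 0.17. Pooled over treatments, the ratio of NGP to CHLA-20 was 1.46, with an exact 95% interval for counting error of 1.27 to 1.69.

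MT1X, one of the MT1 isoforms induced by metals, was at 1.07 and 1.32 CPM in NGP with JSK591, against 1.19 and 0.929 CPM in NGP with DMSO. It was at 0.577 and 0.416 CPM in CHLA-20 with JSK591, against 0.148 and 0.356 CPM in CHLA-20 with DMSO. Again the NGP groups overlap and the CHLA-20 groups do not, here with the JSK591 libraries on the higher side. The JSK591 difference was 0.17 ± 0.29 in NGP and 0.97 ± 0.47 in CHLA-20, where it rests on 20 and 14 counts with JSK591 and 5 and 12 counts with DMSO, and it ranged between 0.48 and 1.75 when either DMSO library of CHLA-20 was left out. The line difference with DMSO was 2.06 ± 0.40, with 2.82 left when CHLA-20 DMSO replicate 2 was dropped and 1.56 when replicate 1 was. Pooled over treatments, MT1X was 3.01 times as high in NGP as in CHLA-20 (interval for counting error 2.18 to 4.21).

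MT1E, a further MT1 isoform, gave the widest gap between the lines. It was at 0.895 and 0.823 CPM in NGP with JSK591, from 31 and 28 counts, against 0.745 and 0.719 CPM in NGP with DMSO, from 25 and 24 counts. In CHLA-20 it had 3 and 0 counts with JSK591, against 1 and 1 with DMSO. Each NGP library had at least 24 counts of it and each CHLA-20 library at most 3. The line difference with DMSO was 4.47 ± 0.70, and the pooled ratio of NGP to CHLA-20 was 21.6, with an interval for counting error of 8.99 to 68. The JSK591 difference was 0.23 ± 0.36 in NGP. In CHLA-20 it was 0.52 ± 1.28 and turned to -3.17 without JSK591 replicate 1, so that no direction can be given there.

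**Figure D3:**
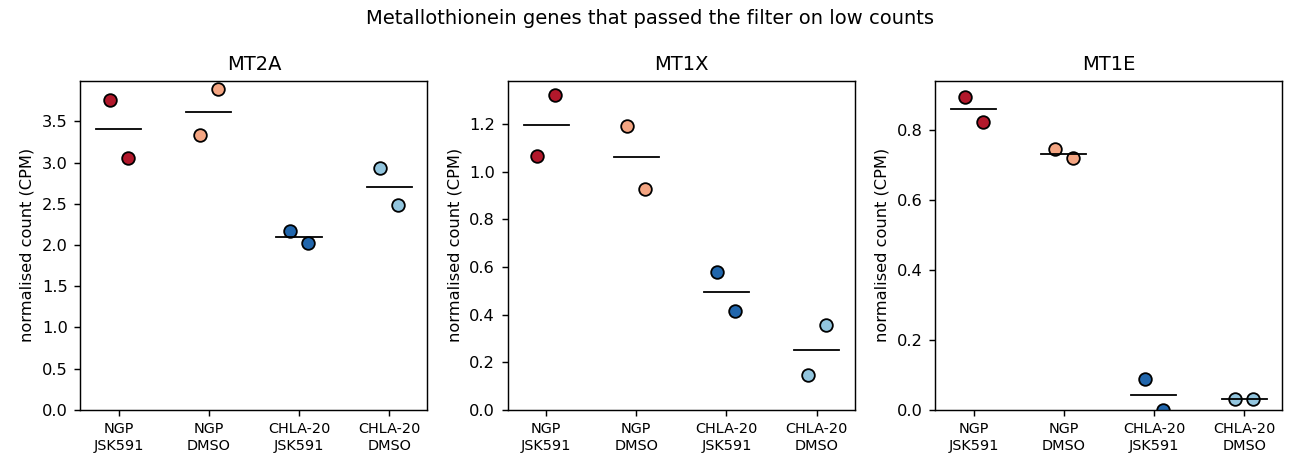
Normalised counts (CPM, TMM scaling) of MT2A, MT1X and MT1E in each library (points) with the mean of each group (lines), for NGP and CHLA-20 with JSK591 and with DMSO; the vertical scales differ between genes. MT1E stands at 0.719 CPM or more in each NGP library and below 0.1 CPM in each CHLA-20 library.

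In all, 0 of the 3 members that passed the filter met an adjusted p of 0.05 for the JSK591 difference in either line, where 36.2% of tested genes did so in NGP and 39.4% in CHLA-20. At an unadjusted p of 0.05 edgeR counted 0 of them in NGP and 2 in CHLA-20, 1 in each direction, and DESeq2 called 0 in either line. All 3 were called higher in NGP than in CHLA-20 with DMSO by edgeR and 2 by DESeq2, which left out MT2A, where edgeR called 36.6% of tested genes higher, 38.9% lower and 75.5% in all. MT1E had to be higher in NGP to be tested, since its CHLA-20 counts alone would not have passed the filter. The difference between the lines in the JSK591 effect, NGP minus CHLA-20, was 0.29 ± 0.24 for MT2A, -0.80 ± 0.55 for MT1X and -0.29 ± 1.24 for MT1E, none called, against 27.7% of tested genes. The groups with JSK591 and DMSO did not overlap for MT1E in NGP and for MT2A and MT1X in CHLA-20, which with 2 libraries each held for 65.3% of tested genes in NGP and 66.6% in CHLA-20. All 3 members also had no overlap between the lines with DMSO, as had 86.6% of tested genes. These members were chosen with such values in view, so nothing is read from their counts.

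**Figure D4:**
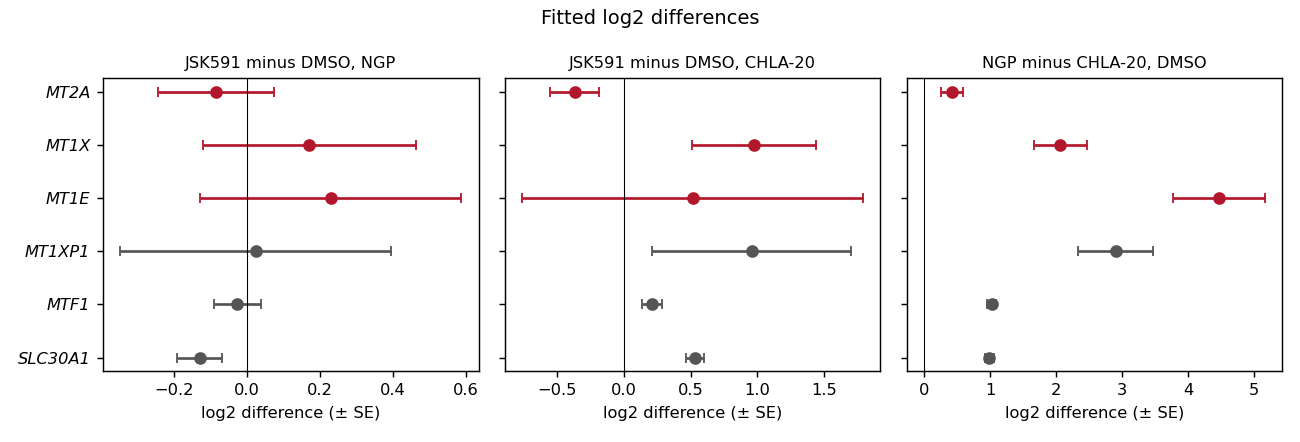
Fitted log2 differences (points) with standard errors (bars) for JSK591 minus DMSO in NGP, the same in CHLA-20, and NGP minus CHLA-20 with DMSO, for 3 members (red) and for MT1XP1, MTF1 and SLC30A1 (grey); the horizontal scales differ. The largest line difference shown is that of MT1E at 4.47.

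MT1G, an isoform induced by zinc, was uneven between libraries of the same group. It had 2 and 6 counts in NGP with JSK591, against 1 and 13 counts in NGP with DMSO. In CHLA-20 it had 1 and 0 counts with JSK591, against 1 and 1 with DMSO. The 13 counts of NGP DMSO replicate 2 have a Poisson interval of 6.92 to 22.2 and the 1 count of replicate 1 one of 0.0253 to 5.57, intervals that do not overlap, for a pair of libraries singled out after its counts were seen. Between the same libraries MT1X and MT1E were lower in replicate 2 and MT2A was 1.17 times as high. Pooled over treatments the ratio of NGP to CHLA-20 was 7.35, with a counting interval of 2.21 to 38.3, and without NGP DMSO replicate 2, an alternative chosen after seeing the data, it was 3.99 (0.995 to 22.9).

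MT1A, another MT1 isoform, went the other way between the lines. It had 0 counts in all 4 NGP libraries. In CHLA-20 it had 1 and 1 counts with JSK591, against 3 and 2 with DMSO. The 7 counts over CHLA-20 correspond to 0.0515 CPM (interval 0.0207 to 0.106), and the floor of 3 counts over the 4 NGP libraries to 0.0221 CPM. The counts allow a ratio of NGP to CHLA-20 of up to 0.695, from counting error alone, at a level near the limit of detection.

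The remaining members were at or near 0. MT1F, a widely expressed MT1 isoform, had 3 and 0 counts in NGP with JSK591, 2 and 2 in NGP with DMSO, 2 and 2 in CHLA-20 with JSK591, and 4 and 0 in CHLA-20 with DMSO, a ratio of NGP to CHLA-20 of 0.877 (counting interval 0.271 to 2.77). MT1M had 1 count in NGP with JSK591 and 1 in CHLA-20 with DMSO. MT3, which limits neurite growth in brain tissue, had 0 counts in all 8 libraries, for which the floor of 3 counts over the 4 libraries of a line is 0.0221 CPM. A change of these genes was not detectable at this depth.

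Of 13 further metallothionein genes and pseudogenes, 6 had any count, and MT1XP1 alone passed the filter. MT1XP1 had 28 and 20 counts in NGP with JSK591, against 23 and 23 in NGP with DMSO. It had 4 and 8 counts in CHLA-20 with JSK591, against 2 and 4 in CHLA-20 with DMSO. Its line difference with DMSO was 2.90 ± 0.57, given with no test because MT1XP1, like MT1E, passed the filter only through NGP, where it is high. The JSK591 difference did not pass in NGP (0.02 ± 0.37, edgeR adjusted p = 0.978) or in CHLA-20 (0.96 ± 0.75, edgeR adjusted p = 0.334). Of its stretches of 50 bases 27.7% occur in other annotated genes, MT1X among them, and of those of 100 bases 0. The remaining metallothionein genes had at most 2 counts in any library.

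The 5 tested genes whose group means followed each member most closely, each centred on its own mean of log2 CPM, are given with the root mean square difference over the 4 groups among 14472 candidates. For MT2A they were SBNO2, RPF2P1, AC079807.1, PDE2A and FOXK1, at 0.0109 to 0.0209. For MT1X they were EEF1AKMT4, S100A11, ZNF695, FAIM2 and CDH11, at 0.0599 to 0.118. For MT1E they were COL4A1, C1QL3, TSPAN31, ANAPC5 and MTND4P24, at 0.039 to 0.0516. With 4 group means many genes fit any pattern, and this likeness carries no test.

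MTF1, the zinc-sensing activator of the family, was counted in every library. It averaged 27.1 ± 1.3 CPM in NGP with JSK591, against 27.6 ± 0.74 CPM in NGP with DMSO (SD, n = 2 each; log2 difference -0.03 ± 0.06, edgeR adjusted p = 0.792). It averaged 15.7 ± 0.19 CPM in CHLA-20 with JSK591, against 13.6 ± 0.18 CPM in CHLA-20 with DMSO, and rose by 0.21 ± 0.08 (edgeR adjusted p = 0.0232). That call was lost under 6 of 15 alternatives, among them the omission of any 1 of the 4 CHLA-20 libraries (adjusted p up to 0.107), and the difference between the lines in the JSK591 effect did not pass (-0.24 ± 0.10, adjusted p = 0.0692). With DMSO, MTF1 was higher in NGP by 1.02 ± 0.07 (edgeR adjusted p = 2.36e-20), the same side as MT2A, MT1X and MT1E.

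SLC30A1, the plasma membrane zinc exporter and a known MTF1 target, rose with JSK591 in CHLA-20. It averaged 30.2 ± 0.015 CPM in NGP with JSK591, against 33.1 ± 2.8 CPM in NGP with DMSO (-0.13 ± 0.06, edgeR adjusted p = 0.0904). It averaged 24.1 ± 0.51 CPM in CHLA-20 with JSK591, against 16.7 ± 0.037 CPM in CHLA-20 with DMSO, and rose by 0.53 ± 0.07 (edgeR adjusted p = 3.74e-09). The effect in NGP minus that in CHLA-20 was -0.66 ± 0.09 (edgeR adjusted p = 6.2e-08). With DMSO, SLC30A1 was higher in NGP by 0.99 ± 0.07 (edgeR adjusted p = 8.55e-21).

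Of 11 genes listed as zinc exporters and vesicular zinc transporters (SLC30A1 to SLC30A10 and TMEM163), 10 were tested. In NGP 3 rose and 0 fell with JSK591 by edgeR (1 and 0 by DESeq2, and 4 and 1 at an unadjusted p of 0.05), and in CHLA-20 5 rose and 1 fell. Over all tested genes 16.8% rose and 19.4% fell in NGP, and 16.9% rose and 22.4% fell in CHLA-20. The list's median log2 difference was 0.12 in NGP and 0.21 in CHLA-20, against 0.00 and -0.02 over all tested genes. In CHLA-20 SLC30A1 led, followed by SLC30A6 at 0.45 ± 0.07 and SLC30A5 at 0.30 ± 0.05, which load zinc into the secretory pathway. SLC30A3, the transporter that fills synaptic vesicles with zinc, rose by 0.37 ± 0.07 in NGP (edgeR adjusted p = 7.94e-06) and fell by 0.27 ± 0.06 in CHLA-20 (edgeR adjusted p = 0.000127), a difference between effects of 0.63 ± 0.09 (edgeR adjusted p = 5.24e-08). TMEM163 (0.19 ± 0.06) and SLC30A7 (0.17 ± 0.05) also rose in NGP, calls that were lost without NGP DMSO replicate 2 or JSK591 replicate 1, and for SLC30A7 also without JSK591 replicate 2. SLC30A7 rose in CHLA-20 as well, by 0.28 ± 0.07 (edgeR adjusted p = 0.000269). Between the lines with DMSO, 6 of the 10 were higher in NGP and 3 lower, where 36.6% of all tested genes were higher and 38.9% lower. TMEM163 was at 30.5 ± 1 CPM in NGP and 0.252 ± 0.021 CPM in CHLA-20, and SLC30A8 at 0.777 ± 0.12 and 0.0592 ± 5.6e-05 CPM. Both are among the 6 but passed the filter only through NGP, where they are high, so nothing is read from their calls.

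Of 14 genes of the SLC39 family, listed as zinc importers, 11 were tested. By edgeR 4 rose and 2 fell in NGP (2 and 2 by DESeq2) and 4 rose and 4 fell in CHLA-20 (3 and 4). The shares over all tested genes were 16.8% up and 19.4% down in NGP, and 16.9% up and 22.4% down in CHLA-20. SLC39A8, which also carries manganese and cadmium, rose by 0.23 ± 0.07 in NGP and 0.38 ± 0.07 in CHLA-20. SLC39A14, a carrier of zinc, iron and manganese, fell by 0.28 ± 0.04 in NGP. It also fell by 0.14 ± 0.04 in CHLA-20, a call lost without CHLA-20 DMSO replicate 2 or JSK591 replicate 2. In CHLA-20 SLC39A13 fell by 0.59 ± 0.06, SLC39A11 fell by 0.55 ± 0.07 and SLC39A4, the intestinal zinc importer, fell by 0.42 ± 0.09. Between the lines with DMSO, 5 were higher in NGP and 4 lower, where 36.6% of all tested genes were higher and 38.9% lower. SLC39A4 stood at 0.762 ± 0.024 CPM in NGP and 14.6 ± 0.45 CPM in CHLA-20 (SD, n = 2 each).

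Metallothioneins also bind copper. Of 13 tested copper genes, 1 rose and 2 fell in NGP by edgeR (1 and 1 by DESeq2) and 2 rose and 4 fell in CHLA-20 (2 and 3). For these and the iron genes below, the shares over all tested genes were 16.8% up and 19.4% down in NGP. In CHLA-20 they were 16.9% up and 22.4% down. SLC31A1, the copper importer, rose by 0.30 ± 0.06 in CHLA-20 and fell by 0.18 ± 0.06 in NGP, a call lost without NGP DMSO replicate 1 and with no filter on low counts. CCS, which hands copper to superoxide dismutase, fell by 0.73 ± 0.11 in CHLA-20. Of 13 tested iron genes, 5 rose and 6 fell in NGP and 3 rose and 5 fell in CHLA-20, with TFRC, the transferrin receptor, up by 0.53 ± 0.04 in NGP and 0.90 ± 0.04 in CHLA-20.

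Oxidants and glucocorticoids are also known inducers of metallothioneins. Of 20 tested genes of the NRF2 and glutathione list, 5 rose and 7 fell in NGP by edgeR (2 and 7 by DESeq2) and 1 rose and 11 fell in CHLA-20 (1 and 9), where over all tested genes 16.8% rose and 19.4% fell in NGP and 16.9% rose and 22.4% fell in CHLA-20. The list had medians of -0.07 in NGP and -0.16 in CHLA-20. HMOX1, the haem oxygenase that answers metals and oxidants, was at 0.671 ± 0.17 CPM in NGP with JSK591, against 0.523 ± 0.15 CPM with DMSO (edgeR adjusted p = 0.498). In CHLA-20 it fell to 1.44 ± 0.57 CPM with JSK591, against 2.19 ± 0.37 CPM with DMSO (-0.60 ± 0.24, edgeR adjusted p = 0.0427), a call lost under 7 of 15 alternatives, with an adjusted p of 0.561 without CHLA-20 JSK591 replicate 2. The other libraries whose omission ended it were CHLA-20 DMSO replicate 1 and either NGP library with DMSO. Of 13 tested genes of the glucocorticoid list, 1 rose and 9 fell in NGP and 1 rose and 7 fell in CHLA-20. The receptor NR3C1 fell in both, to 14 ± 0.36 CPM in NGP with JSK591, against 17 ± 1.1 CPM with DMSO (edgeR adjusted p = 0.00628, not called by DESeq2 or without NGP DMSO replicate 1), and to 1.39 ± 0.033 CPM in CHLA-20 with JSK591, against 2.31 ± 0.21 CPM with DMSO (edgeR adjusted p = 0.0015). With DMSO it was higher in NGP by 2.88 ± 0.12 (edgeR adjusted p = 1.84e-31).

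Around the metallothionein cluster on chromosome 16, 15 of 17 listed neighbours were tested. With DMSO, 36.6% of all tested genes were higher and 38.9% lower in NGP than in CHLA-20. Of these neighbours, 12 were higher and 2 lower. Their median line difference was 0.75, against -0.02 over all tested genes, beside 0.42 for MT2A, 2.06 for MT1X and 4.47 for MT1E. HERPUD1, an endoplasmic reticulum stress gene, was the furthest above (175 ± 0.9 CPM in NGP, 53.9 ± 0.24 CPM in CHLA-20, 1.70 ± 0.04). NLRC5, a regulator of MHC class I genes, was the furthest below (0.194 ± 0.063 CPM in NGP, 5.79 ± 0.69 CPM in CHLA-20, -4.87 ± 0.27). The NGP libraries with DMSO would not have carried NLRC5 past the filter, so nothing is read from its call. With JSK591, 1 neighbour rose and 10 fell in NGP by edgeR (0 and 10 by DESeq2), and 3 rose and 7 fell in CHLA-20 (3 and 5). The shares over all tested genes were 16.8% up and 19.4% down in NGP, and 16.9% up and 22.4% down in CHLA-20. BBS2 fell by 0.59 ± 0.06 in CHLA-20.

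Markers of other cells also moved with the line. Astrocyte markers, 6 genes of which none was at 0 in all libraries, summed to 48.2 to 52.5 CPM in NGP with JSK591, 41.2 to 45.2 in NGP with DMSO, 19.6 to 20.1 in CHLA-20 with JSK591 and 16 to 17.2 in CHLA-20 with DMSO, mostly from SLC1A2, while GFAP stayed between 0.0577 and 0.48 CPM. SLC1A3 went the other way, at 1.54 to 1.88 CPM in CHLA-20 and at most 0.0596 CPM in NGP. The 9 fibroblast and Schwann markers summed to 631 to 668 CPM in NGP with JSK591, 553 to 570 in NGP with DMSO, 339 to 346 in CHLA-20 with JSK591 and 378 to 382 in CHLA-20 with DMSO, with SOX10 at most 0.178 CPM and COL1A1 at 539 to 656 CPM in NGP and 46.2 to 72.1 CPM in CHLA-20. DCN and LUM were among those that went the other way. In CHLA-20 they stood at 134 to 136 and 134 to 160 CPM, and in NGP at most at 0.15 and 4.35 CPM. The 7 blood markers summed to at most 0.462 CPM and the 6 epithelial markers to 2.08 to 5.39 CPM. The 11 adrenergic neuroblastoma markers, genes of the labelled cell type, summed to 2490 to 2650 CPM in NGP and 3870 to 4770 CPM in CHLA-20. Their part in the metallothionein levels was not tested.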

How the data were processed

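RNA of 8 libraries was sequenced on the DNBseq platform after mRNA enrichment, per the labels' protocols. The authors deposited whole-number read counts per gene for each library. The submitters' processing notes name STAR, HTSeq, DESeq2 and the build GRCh38/hg38 without their roles. Versions, annotation, read length and strand setting are not given in the sources used here, so overlapping genes on opposite strands may not have been told apart. All 58721 gene IDs matched GENCODE 29. The 5 summary rows that name no gene were left out. Of all counts, these rows included, they held 5.15% to 6.86% (outside genes), 6.77% to 7.18% (ambiguous) and 19.2% to 22.0% (not unique).

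From these counts, filterByExpr kept 19395 genes, library sizes were summed over these genes and scaled by TMM. One edgeR 4.0.16 quasi-likelihood model of the 4 groups (limma 3.58.1, R 4.3.3; 4 residual degrees of freedom, no block) was fitted to all of them, with Benjamini-Hochberg adjustment and a threshold of 0.05. Tables and figures used Python 3.11.15. The fit was tested on simulated data. Log2 differences are given with standard errors, and "rose" or "fell" marks an adjusted p under 0.05. Alternatives were DESeq2 1.42.0, 2 other scalings, 2 other filters, a replicate block, fits of 2 groups and leaving out each library. Members and gene lists were chosen with earlier results of these data known. By the rule for named genes, MTF1, SLC30A1, HMOX1 and NR3C1 were always given, with, from each list, the up to 3 called genes that changed most in each direction. After values were seen, this was narrowed to at most 1 outside the zinc lists, and not every gene it allows is named. MTF1 and SLC30A1 were also searched for promoter motifs. No protein sequences were used.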

Additional observations from a re-analysis of the deposited data

Results flagged for a closer look

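The effect of JSK591 differed between the lines, by the interaction term of the edgeR model at an adjusted p of 0.05, in 20 of the 47 genes named outside the members, and in none of the 3 metallothionein genes tested. Most of the 47 were named for large changes, so this share is not set against the 27.7% of all tested genes that met the same threshold. Values are log2 effects in NGP minus those in CHLA-20. Among zinc transporters, they were -0.66 for SLC30A1, 0.63 for SLC30A3, -0.23 for SLC30A5, -0.30 for SLC30A6, -0.36 for SLC39A9, 0.48 for SLC39A11 and 0.71 for SLC39A13. Among copper and iron genes, they were -0.49 for SLC31A1, 0.73 for CCS, 0.30 for SCO1, -0.37 for TFRC, 0.32 for FTH1 and -0.23 for PCBP1. Among genes of the oxidant and glucocorticoid lists, they were 1.72 for OSGIN1, 0.82 for KLF9 and -0.43 for DUSP1. Among neighbours of the metallothionein cluster, they were -0.42 for OGFOD1, 0.26 for BBS2, -0.43 for HERPUD1 and 0.25 for CPNE2. The calls of SLC30A5, SLC30A6, SCO1, BBS2 and CPNE2 were lost under 2 to 6 of 14 alternatives each, including at least 1 fit without a library. Exonic bases of FTH1 (62.4%) and PCBP1 (52.2%) overlap other annotated genes.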

How the results depend on the processing

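The counts of genes called stayed within 1.5 times of the counts with all libraries in all 59 pairs of a comparison and an alternative. With DESeq2 they were 5202 for JSK591 in NGP, 5674 in CHLA-20, 3864 for the difference between these effects and 13356 between the lines with DMSO. Leaving out 1 library gave 5556 to 7256 calls for JSK591 in NGP (7021 with all libraries), 5920 to 7708 in CHLA-20 (7639), 4154 to 4882 for the difference between these effects (5368) and 13948 to 14947 between the lines with DMSO (14637). Replicate numbers did not pair the libraries: deviations of libraries with the same number correlated at -0.0269 to 0.0122, and with the replicate block the counts were 7013 for JSK591 in NGP, 7644 in CHLA-20, 5397 for the difference and 14615 between the lines. The summed level of the 8 metallothionein genes stayed within 1 SD under both other scalings. With 2 libraries a group, leaving out 1 cannot move a mean by more than 1 SD, so those values say nothing of stability; they were 5.37 to 5.99 CPM in NGP with DMSO and 2.53 to 2.94 CPM in CHLA-20 with JSK591 when 1 library was left out. The line differences of MT2A (0.315 to 0.573), MT1X (1.56 to 2.82) and MT1E (4.46 to 4.65) kept their sign in every alternative run. Since the lines with DMSO did not overlap for these members, leaving out a library could hardly turn the sign, so this says nothing of stability. MT1E also passed the filter only through NGP, and the members were chosen with such values in view. The JSK591 differences of MT2A and MT1X in NGP and of MT1E in CHLA-20 changed sign when 1 library was left out, with ranges of -0.264 to 0.0563, -0.0117 to 0.335 and -3.17 to 1.44, and the difference between effects for MT1E ranged over -1.21 to 3.4. With the longest transcript as length, MT2A stood at 3.27, MT1E at 0.571 and MT1X at 0.435 CPM per kilobase, which turns the order of MT1E and MT1X. Of 188 values for other named genes, 1 per gene and contrast, 29 lost a call under at least 1 alternative, 8 gained one and 0 changed direction while called. The number of counts limits what can be seen: MT1A, MT1F, MT1G, MT1M and MT3 had at most 13 in any library.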
